A study of Mus musculus with 24 samples.

Results

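The 9 genes described here, Prxl2c, Ctsl, Rsl1, Zfp429, Zfp874a, Zfp729b, Rhobtb3, Arsk and Homer1, lie in this order on mouse chromosome 13, the chromosome that also carries Cmah. They were chosen by their log2 values in the Cmah comparisons of both tissues, because arrays of mice without Cmah differed from arrays of mice with it at some of their probe sets, the groups of short probes that each give 1 value on an Affymetrix array. Every probe set that the platform annotation gives exactly 1 symbol, that of a member, was taken, which gave 22 of 45037 probe sets, and 9 of 18193 genes. The differences with Cmah loss are therefore given as a description without a test. Tests are given for dystrophin loss and for heart against gastrocnemius, which did not choose the genes.

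The study compared 12 male mice aged 2 months, each of which gave 1 array of the gastrocnemius (a calf muscle) and 1 of the heart, 24 in all. The 4 genotypes had 3 animals each. Cmah KO mdx mice lack Cmah and dystrophin and mdx mice lack dystrophin, both under the strain label C57BL6/10J. Cmah KO mice lack Cmah and WT mice are the wild type, both under the strain label C57BL/6J. No other allele or agent is named, and the labels do not say how many founders or litters the animals came from. Cmah encodes the hydroxylase that turns the common sialic acid into its N-glycolyl form, which humans do not make, and mdx mice are a model of Duchenne muscular dystrophy. Each array used 25 ng of total RNA. In this text the 6 Cmah-null arrays of a tissue are Cmah KO mdx and Cmah KO, the 6 Cmah-positive arrays are mdx and WT, and values are log2 intensity unless stated otherwise.

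The genes have unrelated roles. Ctsl encodes cathepsin L, a cysteine protease that degrades proteins in lysosomes, and Arsk encodes a lysosomal sulfatase that removes sulfate groups from glycosaminoglycans. Rsl1 and its neighbours belong to a cluster of zinc finger genes whose proteins bind DNA through their fingers and, in many members of the family, silence chromatin through a KRAB domain. Rsl1 is known for holding down male-specific genes in the liver of female mice. Rhobtb3 encodes a protein of the Golgi, Prxl2c a peroxiredoxin-like protein, and Homer1 a scaffold that links glutamate receptors, ryanodine receptors and other calcium channels.

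By the order of genes in the GRCm38.p6 annotation, 312 protein-coding genes lie between Cmah and Prxl2c. Prxl2c and Ctsl are direct neighbours, with 0 protein-coding genes between them. Between Ctsl and Rsl1 lie 32, between Rsl1 and Zfp429 6, between Zfp429 and Zfp874a 1, and between Zfp874a and Zfp729b 4. Another 55 separate Zfp729b from Rhobtb3, 3 separate Rhobtb3 from Arsk, and 43 separate Arsk from Homer1. The 9 genes are therefore not one run of neighbours, and most genes between them are not members.

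RefSeq's promoter table (GRCm38.p6) matched 8 of the 9 genes. The stretch from 100 bases before to 30 bases after the annotated start is shown for Ctsl, whose probe set gave the largest gastrocnemius difference, and for 4 genes whose promoters share a 13-base pattern, in capitals below. The windows are chr13:64370491-64370620 (minus strand) for Ctsl, chr13:67173082-67173211 (plus strand) for Rsl1, chr13:67399738-67399867 (minus strand) for Zfp429, chr13:67451595-67451724 (minus strand) for Zfp874a and chr13:76098631-76098760 (minus strand) for Arsk, and each is written 5′ to 3′ on the gene's own strand.
Ctsl: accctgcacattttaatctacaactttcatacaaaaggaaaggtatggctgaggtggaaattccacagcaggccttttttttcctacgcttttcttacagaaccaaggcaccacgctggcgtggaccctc
Rsl1: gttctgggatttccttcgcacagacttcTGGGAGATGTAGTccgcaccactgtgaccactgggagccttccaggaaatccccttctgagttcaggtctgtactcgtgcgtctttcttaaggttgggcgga
Zfp429: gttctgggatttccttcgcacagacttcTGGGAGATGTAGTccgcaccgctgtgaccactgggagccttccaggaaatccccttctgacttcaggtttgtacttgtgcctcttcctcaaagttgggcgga
Zfp874a: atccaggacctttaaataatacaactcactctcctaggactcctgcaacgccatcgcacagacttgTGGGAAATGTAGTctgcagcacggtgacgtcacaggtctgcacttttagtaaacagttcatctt
Arsk: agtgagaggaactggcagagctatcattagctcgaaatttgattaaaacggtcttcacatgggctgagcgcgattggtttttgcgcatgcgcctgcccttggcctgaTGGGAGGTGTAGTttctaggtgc

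The pattern, TGGGANNTGTAGT, is a 13-base window with the most letters shared by Rsl1, Zfp874a and Arsk, so it was chosen on these sequences. It was searched on both strands (reverse complement ACTACANNTCCCA) in windows of 250 bases before to 50 after the start, and in these promoters does not overlap the other motifs searched. It occurred in 4 of the 9 member promoters (Homer1 has 2), those of Rsl1, Zfp429, Zfp874a and Arsk, and in 1.47% of 32851 promoters. The pattern began 72 bases before the start in Rsl1 and in Zfp429, 34 before it in Zfp874a and 7 after it in Arsk. Rsl1 and Zfp429 are near copies here: their windows were 87.9% identical over 306 aligned columns, with a longest shared run of 61 bases, against 47.8% between Rsl1 and Zfp874a, so they do not count as separate occurrences. The TATA box TATAAA occurred in 0 of the 9 (13.6% of all promoters), CCAAT in 3 (37.4%) and the GC box GGGCGG in 4 (35.7%). A match describes letters only and shows no binding.

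Both tissues carried their own markers. The summed intensity of 8 heart markers was 40940 to 80130 in heart arrays and 11735 to 18929 in gastrocnemius arrays, and that of 9 skeletal muscle markers was 581 to 22341 in heart and 81990 to 104927 in gastrocnemius. At the Dmd probe set 1448665_at the 6 dystrophin-deficient gastrocnemius arrays read 7.54 to 8.59, against 9.99 to 10.26 in the 6 dystrophin-positive ones. In heart the groups overlapped there, at 8.16 to 9.12 in dystrophin-deficient and 8.01 to 10.09 in dystrophin-positive arrays, and without 2 arrays described next they did not (8.16 to 9.12, against 9.66 to 10.09). Dmd 1417307_at also separated the gastrocnemius groups (7.49 to 8.61, against 9.43 to 10.37), while 1430320_at and 1443315_at overlapped. In heart these other Dmd probe sets all overlapped, with and without the 2 arrays. None of the 6 Cmah probe sets separated Cmah-null from Cmah-positive arrays in either tissue. At 1436039_at, which lay above the 40th percentile in every genotype, arrays averaged 7.16 ± 0.85 in Cmah KO mdx, against 7.21 ± 0.84 in mdx, and 6.36 ± 0.56 in Cmah KO, against 7.38 ± 0.46 in WT gastrocnemius (SD, n = 3 each). Where these probes lie relative to the altered part of the gene is not given, so they do not check the Cmah labels. A pair of heart arrays, Cmah KO replicate 3 and Cmah KO mdx replicate 2, stood apart, both of them Cmah-null. Their log2 difference between the 3′ and 5′ Gapdh probe sets was 4.29 to 4.43, against 0.36 to 1.60 in the other 22 arrays. Their median correlation with the other heart arrays was 0.543 and 0.857, against 0.942 to 0.976 for the other 10. Heart differences that they move are given with and without them.

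Ctsl gave the largest difference of all probe sets in gastrocnemius. At 1457724_at the gastrocnemius arrays read 4.45, 3.73 and 3.82 in Cmah KO mdx, against 8.20, 8.59 and 7.33 in mdx, and 4.95, 3.85 and 3.80 in Cmah KO, against 7.91, 7.65 and 7.50 in WT. Heart arrays read 4.89, 5.89 and 4.32 in Cmah KO mdx, against 7.44, 8.30 and 8.12 in mdx, and 3.93, 3.95 and 5.29 in Cmah KO, against 7.29, 6.95 and 7.75 in WT. In both tissues every Cmah-null array lay below every Cmah-positive array, and the 2 deviating heart arrays were the highest Cmah-null ones in heart. The pooled difference, Cmah-null minus Cmah-positive, was -3.76 in gastrocnemius and -2.93 in heart (-3.37 without the deviating arrays), 13.6 and 7.64 times lower on the linear scale. Within the dystrophin-deficient mice it was -4.04 in gastrocnemius and -2.92 in heart, and within the dystrophin-positive mice -3.49 and -2.94. In gastrocnemius 5 of the 6 Cmah-null values, and in heart 3 of 6, were under the tissue's 40th percentile (4.66 and 4.78). Small intensities make the size of a difference uncertain, and the gastrocnemius difference was -2.90 on the log2(value + 16) scale.

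The other Ctsl probe set, 1451310_a_at, did not separate the groups. It averaged 11.70 ± 1.20 in Cmah KO mdx, against 11.27 ± 0.81 in mdx, and 10.50 ± 0.73 in Cmah KO, against 10.69 ± 0.79 in WT gastrocnemius (SD, n = 3 each). The pooled difference was 0.11 in gastrocnemius and -0.68 in heart (-0.50 without the deviating arrays), with overlap in both. The 2 probe sets of the cathepsin L gene thus disagreed, and which transcript each one measures was not given in the sources used here. As in all bulk tissue, fewer cells of a type and less RNA per cell cannot be told apart.

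**Figure D1:**
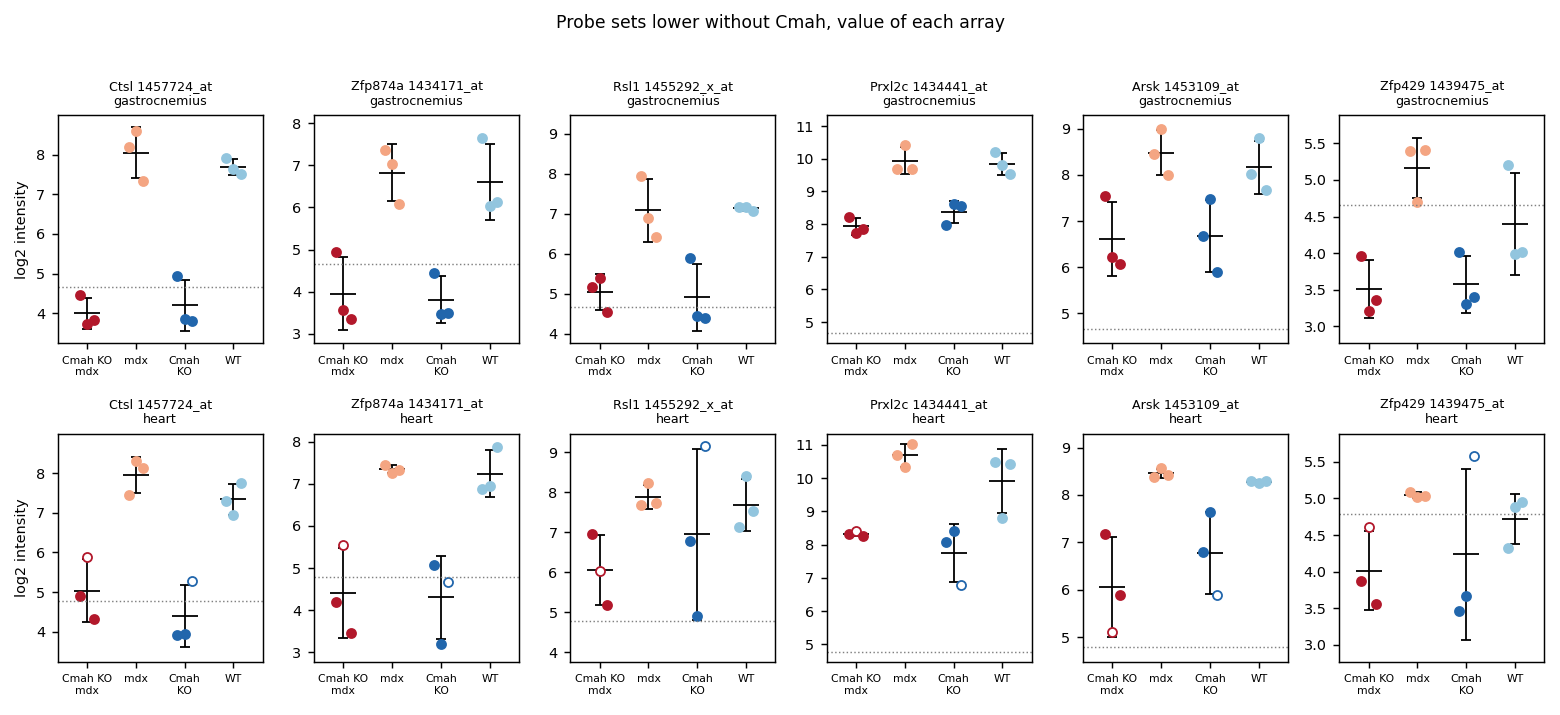
Log2 intensity of each array (points) with the mean and SD of 3 arrays (bars) for 6 probe sets by genotype, gastrocnemius above and heart below; open points are the 2 deviating heart arrays and the dotted line is the 40th percentile of the tissue. The 6 Cmah-null arrays lie below the 6 Cmah-positive arrays for 5 of these probe sets in gastrocnemius, and for 4 in heart.

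Prxl2c, next to Ctsl, also had 1 probe set lower without Cmah. Its probe set 1434441_at read, in gastrocnemius, 8.22, 7.74 and 7.84 in Cmah KO mdx, against 9.70, 10.42 and 9.70 in mdx, and 7.99, 8.60 and 8.54 in Cmah KO, against 10.20, 9.81 and 9.54 in WT. The heart values were 8.33, 8.41 and 8.25 in Cmah KO mdx, against 10.69, 10.33 and 11.03 in mdx, and 8.06, 8.42 and 6.77 in Cmah KO, against 10.49, 8.82 and 10.44 in WT. Groups did not overlap in either tissue, and values stayed well above the 40th percentile in both. The pooled difference was -1.74 in gastrocnemius and -2.26 in heart (-2.03 without the deviating arrays). The second Prxl2c probe set, 1421018_at, went the other way in gastrocnemius, with 6.10, 7.06 and 6.58 in Cmah KO mdx, against 5.01, 6.07 and 5.15 in mdx, and 5.71, 6.92 and 7.45 in Cmah KO, against 5.77, 6.07 and 5.64 in WT. Every Cmah KO mdx value lay above every mdx value there, while Cmah KO and WT overlapped. Its pooled difference was 1.02 in gastrocnemius and 0.12 in heart (0.25 without the deviating arrays).

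Arsk, the lysosomal sulfatase gene, showed the same disagreement between its 2 probe sets. At 1453109_at gastrocnemius values were 7.54, 6.22 and 6.07 in Cmah KO mdx, against 8.45, 8.99 and 8.00 in mdx, and 6.67, 7.47 and 5.90 in Cmah KO, against 8.02, 8.80 and 7.68 in WT. Heart read 7.18, 5.11 and 5.88 in Cmah KO mdx, against 8.39, 8.57 and 8.41 in mdx, and 6.79, 7.64 and 5.90 in Cmah KO, against 8.29, 8.26 and 8.30 in WT at this probe set. Cmah-null arrays were lower without overlap in both tissues, by a pooled difference of -1.68 in gastrocnemius and -1.95 in heart (-1.50 without the deviating arrays), and the 6 Cmah-positive hearts lay within 8.26 to 8.57. At 1453108_at gastrocnemius values were 6.24, 6.59 and 6.50 in Cmah KO mdx, against 4.39, 5.90 and 5.79 in mdx, and 6.28, 5.94 and 5.82 in Cmah KO, against 5.43, 5.27 and 5.10 in WT. The Cmah-null arrays were higher within each pair of genotypes, although 5.82 in a Cmah KO array and 5.90 in an mdx array overlap when the pairs are pooled. The pooled difference was 0.92 in gastrocnemius and 0.41 in heart (0.64 without the deviating arrays), where the Cmah KO replicate 3 array read 4.24.

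Of the 4 zinc finger genes, Zfp874a, Rsl1 and Zfp429 were lower without Cmah and Zfp729b was not. Zfp874a (1434171_at) read 4.94, 3.56 and 3.34 in Cmah KO mdx, against 7.37, 7.03 and 6.08 in mdx, and 4.46, 3.48 and 3.50 in Cmah KO, against 7.65, 6.05 and 6.12 in WT in gastrocnemius. In heart it read 4.20, 5.55 and 3.45 in Cmah KO mdx, against 7.44, 7.26 and 7.33 in mdx, and 5.06, 3.19 and 4.66 in Cmah KO, against 6.88, 6.95 and 7.88 in WT. The groups did not overlap in either tissue, and the pooled difference was -2.84 in gastrocnemius and -2.94 in heart (-3.32 without the deviating arrays). Below the 40th percentile lay 5 of the 6 Cmah-null gastrocnemius values and 4 of the 6 heart values, and the gastrocnemius difference was -1.97 on the log2(value + 16) scale.

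Rsl1 is represented by 1455292_x_at, a probe set whose suffix marks probes that can match similar transcripts, and this cluster holds near copies. Gastrocnemius values were 5.17, 5.40 and 4.54 in Cmah KO mdx, against 7.94, 6.90 and 6.41 in mdx, and 5.88, 4.44 and 4.40 in Cmah KO, against 7.18, 7.17 and 7.06 in WT. All 6 Cmah-null arrays lay below the Cmah-positive ones, by a pooled difference of -2.14. In heart the values were 6.94, 6.02 and 5.19 in Cmah KO mdx, against 7.68, 8.23 and 7.72 in mdx, and 6.79, 4.90 and 9.15 in Cmah KO, against 7.12, 8.39 and 7.54 in WT. The Cmah KO replicate 3 heart, 1 of the 2 deviating arrays, read 9.15, the highest of all, so the groups overlapped. Without the deviating arrays they did not, and the pooled difference was -1.83, against -1.28 with them.

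Zfp429 (1439475_at) lay near or below the 40th percentile in most arrays, with 3.96, 3.21 and 3.36 in Cmah KO mdx, against 5.40, 4.69 and 5.41 in mdx, and 4.02, 3.30 and 3.40 in Cmah KO, against 5.21, 3.99 and 4.02 in WT in gastrocnemius. Cmah KO mdx did not overlap mdx, whereas Cmah KO and WT overlapped, at 4.02 in the highest Cmah KO and 3.99 in the lowest WT array. In heart it read 3.88, 4.61 and 3.55 in Cmah KO mdx, against 5.10, 5.02 and 5.03 in mdx, and 3.47, 3.66 and 5.58 in Cmah KO, against 4.33, 4.89 and 4.95 in WT. The deviating Cmah KO array, at 5.58, was the highest heart value, and the deviating Cmah KO mdx array, at 4.61, lay above the lowest WT array, at 4.33. The other 4 Cmah-null hearts lay below all Cmah-positive ones. Its pooled difference was -1.24 in gastrocnemius and -0.76 in heart (-1.24 without the deviating arrays). On the log2(value + 16) scale the gastrocnemius difference was -0.68.

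Zfp729b, the fourth zinc finger gene, was not lower without Cmah in gastrocnemius. Its probe set 1456827_at read 6.16, 5.72 and 5.10 in Cmah KO mdx, against 4.74, 4.26 and 3.54 in mdx, and 5.74, 4.89 and 5.25 in Cmah KO, against 5.19, 4.46 and 5.11 in WT in gastrocnemius, with no overlap between Cmah KO mdx and mdx and overlap between Cmah KO and WT. The pooled difference was 0.93 in gastrocnemius and 0.44 in heart (0.63 without the deviating arrays). Its second probe set, 1455196_s_at, gave 0.16 in gastrocnemius and -0.22 in heart (-0.06 without the deviating arrays), with overlap.

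Rhobtb3 was higher without Cmah at its probe set 1457009_at. Gastrocnemius arrays there read 8.54, 8.10 and 7.68 in Cmah KO mdx, against 5.12, 4.89 and 6.32 in mdx, and 8.33, 7.34 and 7.72 in Cmah KO, against 5.92, 5.03 and 7.26 in WT. No Cmah-null array overlapped a Cmah-positive one, and the pooled difference was 2.20. In heart the values were 8.56, 4.62 and 8.32 in Cmah KO mdx, against 5.00, 5.29 and 5.11 in mdx, and 8.38, 6.59 and 6.69 in Cmah KO, against 5.10, 7.40 and 4.97 in WT, with a pooled difference of 1.71 (2.48 without the deviating arrays). The heart groups overlapped, since a WT array read 7.40 and the deviating Cmah KO mdx array 4.62.

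The other 4 Rhobtb3 probe sets were closer to 0. At 1433647_s_at gastrocnemius values were 9.38, 9.33 and 8.85 in Cmah KO mdx, against 8.46, 7.99 and 8.02 in mdx, and 9.85, 8.60 and 9.62 in Cmah KO, against 8.37, 8.47 and 9.17 in WT, and the pooled difference was 0.86. In heart that probe set gave 0.16 with all arrays and 0.98 without the deviating ones, 1 of which read 5.22. Probe set 1453227_at gave 1.03 in gastrocnemius and 0.16 in heart (0.84 without the deviating arrays), with overlap. At 1447869_x_at the difference was 0.24 in gastrocnemius and 0.29 in heart (0.18 without them). The fifth, 1429661_at, read 1.90 to 3.47 in all 24 arrays, below the 40th percentile.

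**Figure D2:**
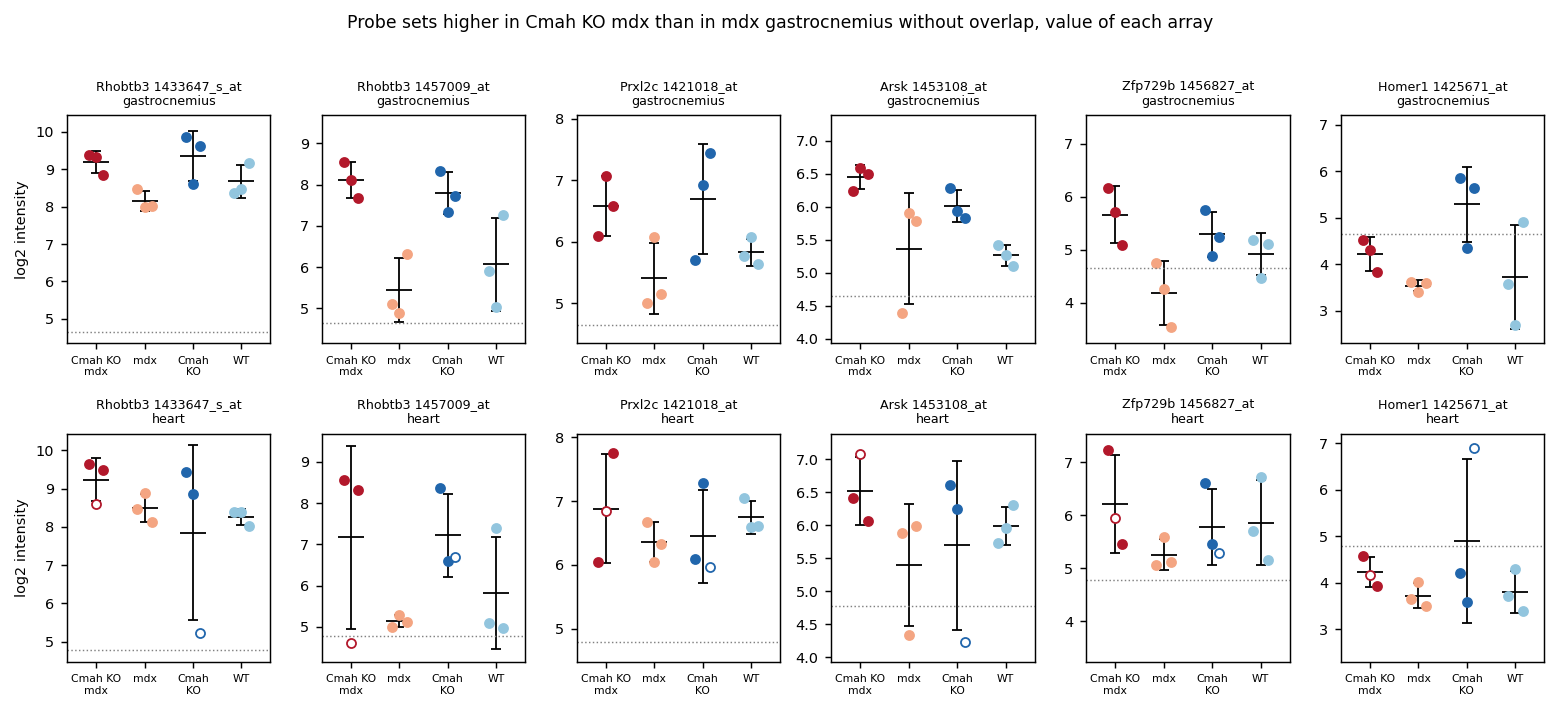
Log2 intensity of each array (points) with the mean and SD of 3 arrays (bars) for the 6 probe sets higher without overlap in Cmah KO mdx than in mdx gastrocnemius, by genotype, gastrocnemius above and heart below; open points are the 2 deviating heart arrays and the dotted line is the 40th percentile. Rhobtb3 1457009_at reads 7.34 to 8.54 in Cmah-null gastrocnemius arrays and 4.89 to 7.26 in Cmah-positive ones.

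Homer1, the last of the 9 genes on the chromosome, overlapped between Cmah-null and Cmah-positive arrays at all 6 of its probe sets in both tissues. At the 5 that lay above the 40th percentile in all arrays the pooled differences were 0.09 to 0.27 in gastrocnemius and -0.73 to -0.27 in heart. Leaving out the deviating arrays gave heart differences of -0.36 to 0.26, with 1436387_at then above 0. At 1421768_a_at the Cmah KO hearts read 7.75, 7.53 and 5.34, all below the WT hearts at 7.87, 7.81 and 7.78, and the lowest was the deviating array. The remaining probe set, 1425671_at, read 4.53, 4.31 and 3.83 in Cmah KO mdx, against 3.61, 3.41 and 3.60 in mdx, and 5.86, 4.36 and 5.64 in Cmah KO, against 3.59, 2.69 and 4.92 in WT in gastrocnemius. Cmah KO mdx did not overlap mdx there, and the pooled difference was 1.12. In heart it was 0.81 with all arrays and 0.32 without the deviating ones.

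Counted over the 22 probe sets, 5 were lower and 1 was higher without overlap between the 6 Cmah-null and the 6 Cmah-positive gastrocnemius arrays, where all probe sets gave 0.0333% and 0.0266%. In heart 4 were lower (0.0733% of all) and 0 higher (0.167%), and without the deviating arrays 6 were lower (0.191%) and 0 higher (0.249%). Lower in both tissues were 4 member probe sets of 5 over the whole array (0.0111%), those of Ctsl, Prxl2c, Zfp874a and Arsk, and 0 were higher in both (0%). Without the deviating heart arrays these counts were 5 of 6 lower (0.0133%), with Rsl1 added, and 0 of 2 higher (0.00444%). Because the members were picked for these differences, nothing is read from these shares. The median pooled difference over the 22 was 0.20 in gastrocnemius (all probe sets 0.01), with 6 lower and 16 higher, and -0.31 in heart (all probe sets 0.06), with 13 lower and 9 higher. Leaving out the deviating arrays moved the heart median to -0.05.

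Within each pair of genotypes 3 arrays meet 3. In gastrocnemius 6 probe sets were lower (2.06% of all) and 6 higher (2.3%) in Cmah KO mdx against mdx, and 5 were lower (1.89%) and 3 higher (1.93%) in Cmah KO against WT. In heart 6 were lower (4.09%) and 2 higher (5.6%) in Cmah KO mdx against mdx, and 5 lower (2.49%) and 0 higher (3.47%) in Cmah KO against WT. Without the deviating arrays the heart counts were 6 lower (6.5%) and 4 higher (7.17%), and 7 lower (4.92%) and 1 higher (5.36%).

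**Figure D3:**
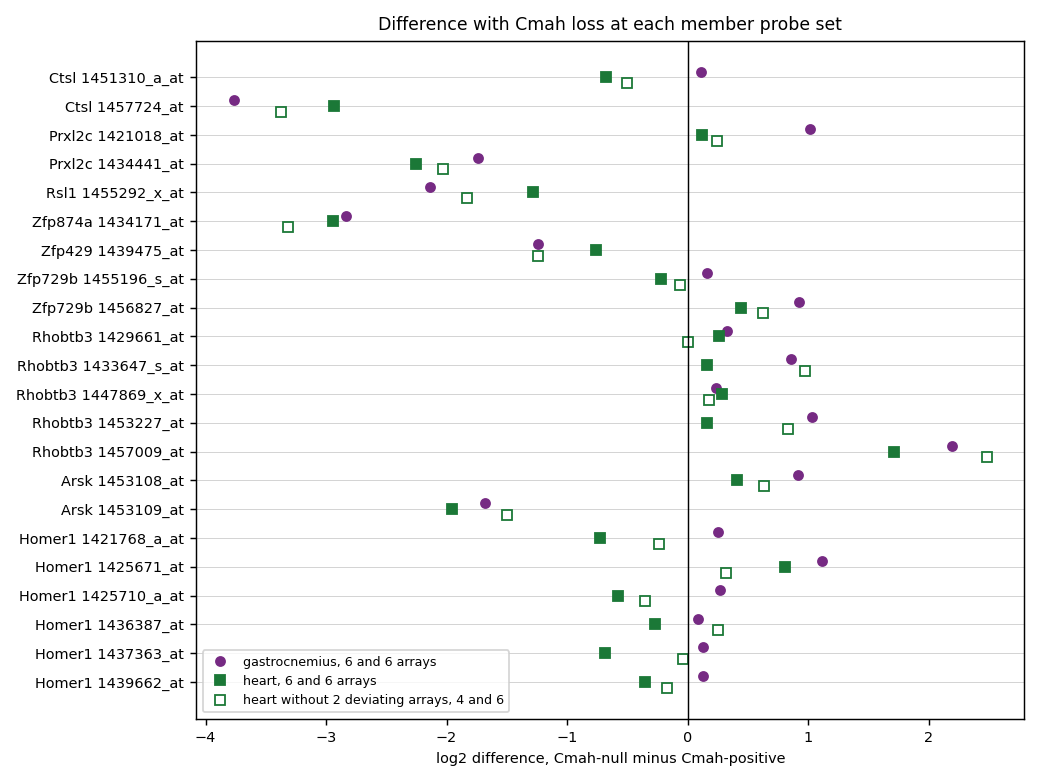
Pooled log2 difference, Cmah-null minus Cmah-positive, at each of the 22 probe sets (rows) in gastrocnemius (circles), heart (filled squares) and heart without the 2 deviating arrays (open squares). Probe sets of Ctsl, Prxl2c and Arsk lie on both sides of 0 in gastrocnemius, and Ctsl 1457724_at reaches -3.76 there.

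Markers of other cell types were also read, each gene only at its probe set with the highest mean. None of the 8 macrophage markers, 5 fibroblast markers, 3 measured adipocyte markers, 5 endothelial markers or 3 measured nerve and Schwann cell markers separated Cmah-null from Cmah-positive arrays in either tissue. Of all probe sets only 0.06% did so in gastrocnemius and 0.24% in heart, so nothing is read from this count. Summed macrophage marker intensity was 3490 to 19148 in Cmah-null and 3562 to 14735 in Cmah-positive gastrocnemius, with Itgam below the 40th percentile in every genotype. In heart the median difference, Cmah-null minus Cmah-positive, was -0.73 over macrophage, -0.58 over fibroblast, -0.88 over endothelial, 0.66 over adipocyte and 0.67 over nerve markers. The adipocyte marker Lep lay below the 40th percentile in every heart genotype, and the nerve markers S100b in mdx and Sox10 in WT hearts. Summed adipocyte marker intensity was 70 to 1366 in Cmah-null and 41 to 1711 in Cmah-positive hearts. Without the deviating arrays the medians, in the same order, were -0.47, -0.20, -0.25, 1.17 and 0.43. The 9 skeletal muscle markers gave -0.79 in heart (-0.42 without these arrays) and the 8 heart markers -0.24 (-0.02). The Gapdh 3′ minus 5′ difference was 0.48 to 4.43 in Cmah-null and 0.44 to 1.09 in Cmah-positive arrays. Their part in the heart differences was not tested.

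Genes beside the members were read from the 3 nearest protein-coding genes on each side that had a probe set, 34 genes with 56 probe sets. In gastrocnemius 0 of the 56 separated the groups, and their differences ran from -1.19 to 1.00 with a median of 0.04. In heart 0 separated them with all arrays and 1, lower, without the deviating arrays, and the differences ran from -1.85 to 1.03 with a median of -0.10 (-1.21 to 0.94 and -0.03 without the deviating arrays). Of all probe sets 0.06% separated the groups in gastrocnemius and 0.24% in heart (0.44% without the deviating arrays), so nothing is read from these counts. The 9 genes were chosen for their differences, so that they stand out from their neighbours was set by that choice.

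**Figure D4:**
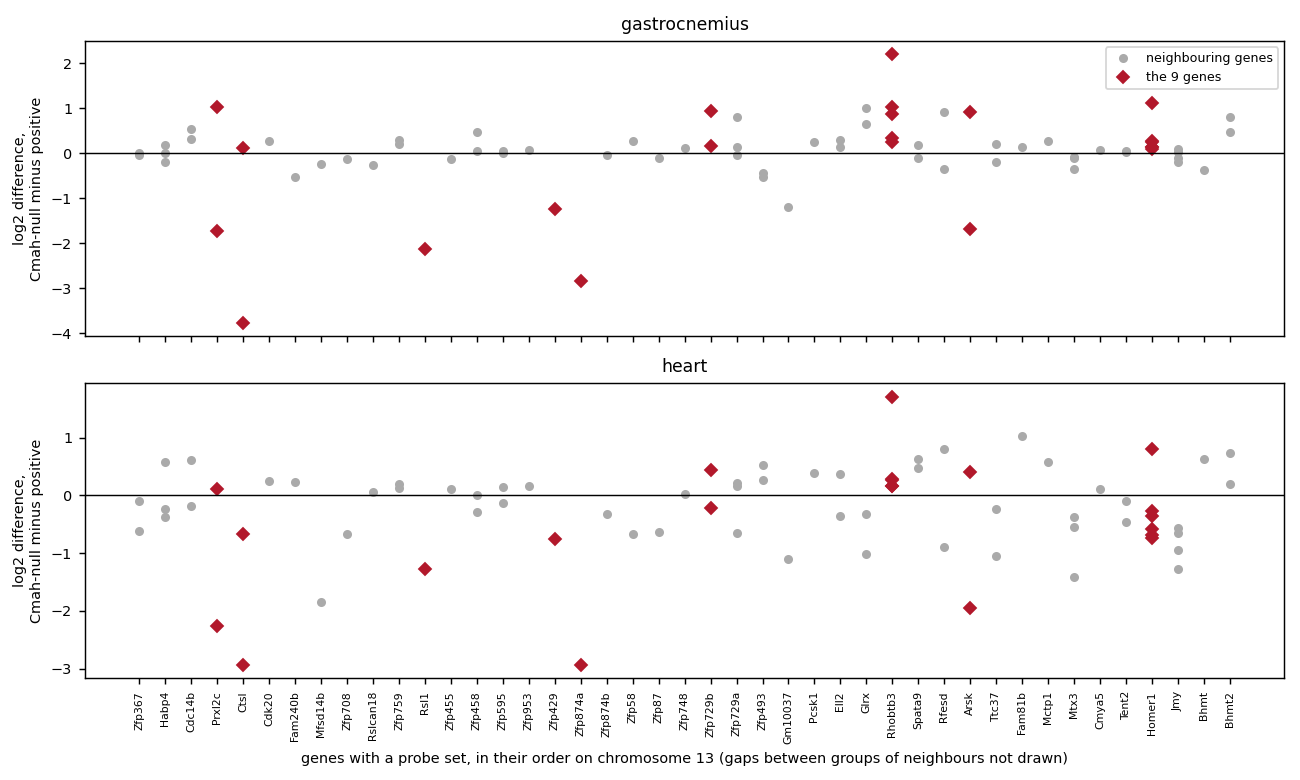
Log2 difference, Cmah-null minus Cmah-positive, at each probe set of the 9 genes (diamonds) and of 34 neighbouring genes (grey circles), in gene order along chromosome 13, for gastrocnemius (above) and heart (below). In gastrocnemius the neighbours lie between -1.19 and 1.00, and each of the 9 genes except Zfp729b has a probe set outside that range; in heart the neighbours lie between -1.85 and 1.03, and Rsl1, Zfp429, Zfp729b and Homer1 lie inside that range.

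Ordered by likeness to Ctsl 1457724_at (Pearson r over the 12 arrays of a tissue, among probe sets of other genes that passed the filter on low values), the first in gastrocnemius were Zfp874a (0.960), the netrin receptor gene Unc5a (0.947), Mcur1 (0.946), Rsl1 (0.939) and Prxl2c 1434441_at (0.936), all on chromosome 13. In heart they were Zfp874a (0.935), Prxl2c 1434441_at (0.829), Gm10037 (0.793), Fam78b on chromosome 1 (0.779) and Fastkd3 (0.746). The 12 arrays form a low Cmah-null and a high Cmah-positive set at this probe set, so r describes mainly that split. At the other end Rhobtb3 1457009_at had -0.858 in gastrocnemius and -0.745 in heart.

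Dystrophin loss did not choose the genes and could be tested, with both Cmah states pooled. The strain labels divide the arrays in the same way as dystrophin. Dystrophin loss and strain therefore cannot be told apart in these differences, here and in the paragraphs below. In gastrocnemius 0 of the 21 tested member probe sets passed limma's test, against 0.857% of 29518 probe sets (0.725% higher and 0.132% lower). At Homer1 1425671_at only dystrophin-positive arrays lay above the level of the filter on low values (4.66), which favours a fall. Nothing is therefore read from its difference (-0.63). Homer1 was lower in dystrophin-deficient arrays at its other probe sets without passing, with log2 differences of -0.97 to -0.58. Its smallest adjusted p was 0.198, at 1439662_at (-0.73 ± 0.22, SE), where arrays read 9.87, 9.86 and 9.54 in Cmah KO mdx, against 9.98, 9.71 and 9.09 in mdx, and 10.71, 10.21 and 10.44 in Cmah KO, against 9.92, 10.49 and 10.66 in WT. Every Cmah KO mdx array lay below every Cmah KO array there. The Ctsl probe set 1451310_a_at differed by 0.89 ± 0.46 (adjusted p = 0.589 by limma). Summed macrophage marker intensity was 7596 to 19148 in Cmah KO mdx and 9072 to 14735 in mdx gastrocnemius, against 3490 to 5452 in Cmah KO and 3562 to 10252 in WT, and its part in the Ctsl value was not tested. Ctsl 1457724_at differed by 0.08 ± 0.29. Its gastrocnemius means, 4.00 in Cmah KO mdx and 4.20 in Cmah KO, lay below the level of the filter on low values (4.66). So did those of Zfp874a (3.95 and 3.81) and Zfp429 (3.51 and 3.57), and in heart those of Zfp874a and Zfp429. These probe sets met the filter through their Cmah-positive arrays, where the choice of genes made them high. A fall in Cmah-null arrays could hardly be seen there, so no absence of change is read from them. In heart the Cmah KO mean of Ctsl 1457724_at (4.39) also lay below the heart level of the filter (4.78).

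In heart 0 of 20 tested member probe sets passed, and neither did any of 29421 probe sets (0%; 246 at an unadjusted p below 0.05 by limma). With the deviating arrays left out, 0 of 20 members and 0 of 28785 probe sets passed (0%; 622 at an unadjusted p below 0.05). The largest member difference was 1.08 ± 0.41 at Rhobtb3 1447869_x_at (adjusted p = 0.999), and 0.68 ± 0.33 without these arrays.

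The dystrophin difference was also compared between the tissues. For 0 of 21 members did heart minus gastrocnemius pass, against 0.462% of 32266 (0.0341% higher and 0.428% lower). With the 2 arrays left out, 1 member passed, higher, against 3.22% of 31326 (0.686% higher and 2.53% lower), Rhobtb3 1447869_x_at. In heart it read 5.65, 7.28 and 5.84 in Cmah KO mdx, against 5.17, 5.35 and 5.49 in mdx, and 4.41, 5.25 and 3.96 in Cmah KO, against 5.60, 3.94 and 5.14 in WT. Gastrocnemius values were 4.33, 5.95 and 5.54 in Cmah KO mdx, against 4.22, 4.88 and 5.36 in mdx, and 5.68, 5.93 and 5.72 in Cmah KO, against 5.09, 6.29 and 5.88 in WT. The deviating Cmah KO mdx array, at 7.28, was the highest heart array, and dystrophin-deficient and dystrophin-positive arrays overlapped in both tissues. No other Rhobtb3 probe set passed, and the suffix of 1447869_x_at marks probes that can match similar transcripts. The dystrophin difference was 1.80 ± 0.47 higher in heart than in gastrocnemius with all arrays (limma adjusted p = 0.109), and 1.44 ± 0.38 without the deviating ones (limma adjusted p = 0.0465).

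Between tissues 3 of 21 member probe sets passed limma's test with animal as a random block, where 26.8% of all 32266 tested did (11.9% higher and 14.9% lower in heart). Whether the shares differ was not tested. Homer1 1436387_at fell by 1.13 ± 0.31 in heart against gastrocnemius (adjusted p = 0.00913). Heart read 9.01, 8.43 and 8.86 in Cmah KO mdx, against 8.20, 9.04 and 7.77 in mdx, and 9.11, 8.49 and 6.17 in Cmah KO, against 8.75, 9.57 and 8.34 in WT. In gastrocnemius it read 9.79, 9.28 and 8.65 in Cmah KO mdx, against 10.30, 8.67 and 8.04 in mdx, and 10.87, 9.09 and 10.23 in Cmah KO, against 9.30, 9.64 and 11.42 in WT. The 2 tissues overlapped, and the other 5 Homer1 probe sets differed by -0.47 to -0.01 without passing. Rsl1 rose by 1.10 ± 0.33 in heart (adjusted p = 0.0160) and Zfp729b 1456827_at by 0.76 ± 0.22 (adjusted p = 0.0129). Without the deviating arrays these differences were -0.89, 0.76 and 0.82, and 5 of 21 members passed where 50.2% of all 31326 did (27.6% higher and 22.5% lower), the added ones being Prxl2c 1421018_at (0.59) and Zfp729b 1455196_s_at (0.60). Ctsl 1457724_at differed by 0.20 ± 0.22 and 1451310_a_at by 0.01 ± 0.26. Low Cmah-null values at 1457724_at, described above, limit what its difference can show.

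**Figure D5:**
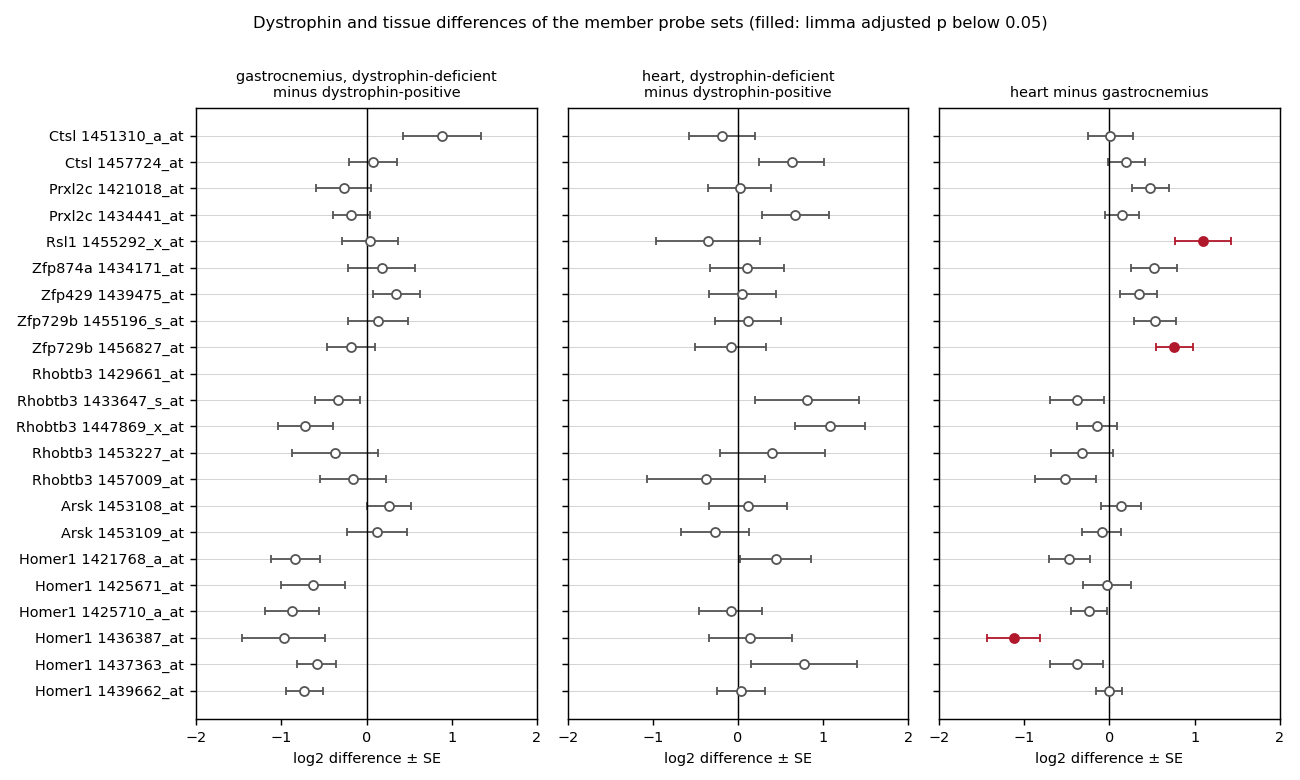
Log2 difference with its standard error at each tested member probe set, for dystrophin-deficient minus dystrophin-positive gastrocnemius (left) and heart (middle) and for heart minus gastrocnemius (right). Filled red points have a limma adjusted p below 0.05; there are 3, at Rsl1, Zfp729b and Homer1, all between the tissues.

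Genes related to the members were read from 5 lists. Each gene was read only at its probe set with the highest mean over the arrays used, and its other probe sets were not counted. At these probe sets no list gene separated Cmah-null from Cmah-positive arrays in either tissue. Of all probe sets only 0.06% did so in gastrocnemius and 0.24% in heart, so nothing is read from these counts. Among 14 tested lysosomal proteases other than Ctsl, 1 passed with dystrophin loss in gastrocnemius, Ctss, the cathepsin of antigen-presenting cells, which rose by 1.93 ± 0.34 (limma adjusted p = 0.0276), and 0 fell. The list's median dystrophin difference was 0.60 there, against -0.01 over all tested probe sets. In heart against gastrocnemius, where 26.8% of all probe sets passed, 4 of 15 fell, among them Ctsk (-1.21) and Ctsc (-0.79), and 0 rose, a share near that of all probe sets. Of 11 tested sulfatase and sulfatase modifying factor genes 3 fell in heart and 0 rose, again near the share of all probe sets. Those that fell were Arsi (-2.04), Galns (-0.69) and Sumf2 (-0.52). When the deviating arrays were left out, 50.2% of all passed. Then 4 of the proteases fell and 1 rose, and 5 of the sulfatase and modifying factor genes fell and 2 rose.

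For the other lists too, 26.8% of all tested probe sets passed between the tissues, and 50.2% without the deviating arrays. Whether the lists differ from these shares was not tested. Of 12 tested zinc finger genes of the Rsl1 cluster 1 rose in heart, Zfp595 (0.55), and 0 fell (2 and 0 without the deviating arrays). Among 5 tested Homer1 partners, 3 rose in heart and 1 fell: the cardiac ryanodine receptor gene Ryr2 (7.51), the channel gene Trpc1 (2.05) and the scaffold gene Shank3 (0.85) rose, and the skeletal muscle ryanodine receptor gene Ryr1 fell by 5.18. Among the 6 paralogs of Prxl2c, Rhobtb3 and Homer1, Rhobtb1 rose (1.03), and Rhobtb2 (-0.99) and Prxl2b (-0.49) fell.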

How the data were processed

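Gene expression was measured on 24 Affymetrix mouse arrays. The authors deposited linear intensity values, processed with GCOS and RMA per the submitters' processing notes, with no version given. The log2 of the 45037 probe sets that are no controls was taken here. The platform annotation names 1 gene for 34945 of them, several for 932 and none for 9160. The members, the gene lists and the tests were chosen with earlier results of these data known. Named are all members, and for lists up to 4 genes past the test. Marker and list genes were read only from their probe set with the highest mean over the arrays used. Tests covered probe sets for which 3 or more arrays of the fit lay above the 40th percentile, which 21 of 22 member probe sets met in gastrocnemius and 20 in heart. limma 3.58.1 (R 4.3.3; 2-sided moderated tests, Benjamini-Hochberg adjusted p below 0.05 over all tested) fitted the 4 genotype means per tissue, and both tissues with animal as a random block (consensus correlation 0.214). Cmah comparisons got no p. Non-overlap means that every array of one group lies below every array of the other. Errors are SD of means and SE of differences. The number of arrays limits the precision. No label gives a batch. The dystrophin fits were tested on simulated data with 50 changed probe sets of each size. In gastrocnemius they called 24% of log2 changes of 1 and 84% of those of 2. In heart they called 6% and 34%, so 0 calls there do not show absence of change.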

Additional observations from a re-analysis of the deposited data

How the results depend on the processing

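Alternatives covered quantile normalization, no filter, array weights, log2(value + 16), replicate blocks and leaving out each array or animal, and, chosen after seeing the data, the 2 deviating heart arrays. Of 638 recomputed member differences with Cmah loss, 634 moved by less than 1 SD, and 0 differences without overlap turned in sign. Leaving out arrays or taking log2(value + 16) cannot turn the sign where groups do not overlap. The members were also chosen by these values, so nothing is read from these counts. Of 1447 recomputed member tests 0 lost a call and 7 gained one. The gastrocnemius count of 253 with dystrophin loss was 860 with array weights, 177 with the replicate number as a replicate block, and 70 to 396 leaving out 1 array, fewest without Cmah KO mdx replicate 2, with 0 members in each. Same-number correlations of deviations from the group means ran from -0.58 to 0.61 in gastrocnemius and from -0.42 to 0.64 in heart. Different-number ones ran from -0.64 to 0.62 and from -0.64 to 0.59. The medians were 0.18 for same and -0.09 for different numbers in gastrocnemius, and 0.002 and -0.05 in heart. As the ranges overlapped, the replicate numbers were not taken to pair animals in the main fits. The heart count stayed at 0 in the alternatives run. The tissue count of 8653 was 15715 without the 2 deviating arrays, 6771 without and 8188 with animal as a fixed replicate block, and 6788 to 11224 leaving out 1 animal, most without the Cmah KO animal of the deviating array. The 149 probe sets whose dystrophin difference differed between tissues were 98 with quantile normalization, 64 without the animal block, 1008 without the deviating arrays, when Rhobtb3 1447869_x_at was the 1 member called, and 59 to 221 leaving out 1 animal. Member calls between tissues were 3, or 5 without the deviating arrays, and 3 to 5 leaving out 1 animal. Non-overlapping member probe sets in heart numbered 8 in Cmah KO mdx against mdx, 8 to 15 leaving out 1 array (13 without mdx replicate 2, 15 without Cmah KO mdx replicate 3), and 5 in Cmah KO against WT, 8 without the deviating arrays and 5 to 8 leaving out 1 array (8 without Cmah KO replicate 3). With fewer arrays non-overlap is easier to meet. For the other changes the cause was not tested.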
